A study of Mus musculus with 6 samples.

Results

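The genes described here are 31 that build cholesterol, sense it, move it within the cell, store it or pass it out of the cell. They were listed by role, with earlier results of these data known, and taken by symbol from a count table of 56734 genes, where all 31 were found. The table comes from B16-OVA cells, a mouse B16 melanoma line that carries chicken ovalbumin as a model antigen. The groups were 3 libraries labelled WT and 3 labelled Ythdf2-KO, a knockout of the gene for an m6A-binding protein that promotes decay of methylated mRNA. Both groups were B16-OVA tumor cells grown in the same serum-containing medium. Sample titles carry the tags gNC for WT and gY2 for Ythdf2-KO. The labels do not say what these tags mean, whether each genotype was 1 clone, or whether replicates were separate cultures, so p-values measure only the spread between these libraries. The comparison asks how the mRNAs of the tumor cells differ when this m6A reader is lost.

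Cholesterol is made from acetyl-CoA by the mevalonate route, which ends in farnesyl diphosphate, and by a second stretch that runs from squalene through lanosterol to the sterol itself. The transcription factor SREBP2, encoded by Srebf2, switches on these enzymes when membrane sterol is low: SCAP carries it from the endoplasmic reticulum to the Golgi, where proteases release it, and INSIG proteins hold it back when sterol is plentiful. Liver X receptors (LXRs) respond to oxysterols and switch on cholesterol exporters such as ABCA1. LXRs also switch on Mylip, which encodes a ubiquitin ligase that sends lipoprotein receptors to degradation.

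Sequence before the transcription start was read from RefSeq promoter windows on GRCm38.p6, each spanning 250 bases before to 50 bases after a start site. Windows were used for 25 of the 31 genes, 15 of them synthesis enzymes. The rest had no window, or lay on a chromosome left out for the 31 genes but kept for the comparison genes. Both strands were searched for CACNCCAC and TCACNCCA, which are overlapping forms of the sterol regulatory element, for CCAAT, the box bound by NF-Y, and for GGGCGG, the GC box bound by SP1. The last 180 bases before the start are shown for 3 enzymes, for Srebf2 and Insig1, and for Npc2, which moved the other way. Capitals mark every match to a searched motif on either strand.
Hmgcs1, chr13:119690171-119690350, plus strand: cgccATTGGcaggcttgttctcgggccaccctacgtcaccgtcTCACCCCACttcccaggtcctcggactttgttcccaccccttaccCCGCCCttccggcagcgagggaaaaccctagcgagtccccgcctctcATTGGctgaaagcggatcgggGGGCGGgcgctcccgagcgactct
Cyp51, chr5:4104698-4104877, minus strand: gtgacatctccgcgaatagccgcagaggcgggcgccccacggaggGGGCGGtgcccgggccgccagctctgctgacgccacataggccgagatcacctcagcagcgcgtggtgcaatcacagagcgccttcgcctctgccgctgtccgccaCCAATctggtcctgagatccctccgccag
Nsdhl, chrX:72918341-72918520, plus strand: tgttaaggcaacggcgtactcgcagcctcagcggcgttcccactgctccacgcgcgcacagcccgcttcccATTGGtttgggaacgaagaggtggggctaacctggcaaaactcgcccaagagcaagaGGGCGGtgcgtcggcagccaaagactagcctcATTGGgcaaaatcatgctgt
Srebf2, chr15:82147089-82147268, plus strand: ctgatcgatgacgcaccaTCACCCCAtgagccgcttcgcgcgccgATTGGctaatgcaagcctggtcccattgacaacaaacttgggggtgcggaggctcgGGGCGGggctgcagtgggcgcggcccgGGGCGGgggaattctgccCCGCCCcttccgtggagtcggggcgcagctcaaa
Insig1, chr5:28071232-28071411, plus strand: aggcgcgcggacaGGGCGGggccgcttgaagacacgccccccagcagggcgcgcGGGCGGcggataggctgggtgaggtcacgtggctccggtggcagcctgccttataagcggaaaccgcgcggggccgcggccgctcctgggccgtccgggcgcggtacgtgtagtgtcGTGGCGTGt
Npc2, chr12:84773113-84773292, minus strand: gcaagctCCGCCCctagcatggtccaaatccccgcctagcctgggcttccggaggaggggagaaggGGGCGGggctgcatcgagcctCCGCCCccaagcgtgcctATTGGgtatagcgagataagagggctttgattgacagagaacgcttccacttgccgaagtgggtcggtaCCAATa

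CCAAT stood in a window of 20 of the 25 genes and of 14 of the 15 enzymes, against 43.5% of the 11381 tested genes that have a window. GGGCGG stood in 22 of the 25 genes and 14 of the 15 enzymes, against 65.3% of those tested genes. The sterol element form CACNCCAC was found for Acat2, Hmgcs1 and Insig1, 3 of 25, against 7.68% of tested genes. TCACNCCA was found for Hmgcs1, Msmo1 and Srebf2, also 3 of 25, against 4.67%. Hmgcs1 carried both forms at 1 place, 136 to 137 bases before the start. Over all 32851 windows in the table, 6.24% held CACNCCAC, 4.36% TCACNCCA, 37.4% CCAAT and 35.7% GGGCGG. These are matches of letters in a short window, and binding was not measured.

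WT libraries held 55660473 to 68739046 counts and Ythdf2-KO libraries 61167059 to 69497273. Levels are given as CPM (counts per 1000000 of a library's total after scaling with TMM factors). Ythdf2 mRNA stood at 124, 124 and 125 CPM in WT and at 100.1, 100.5 and 104 CPM in Ythdf2-KO, 1.23-fold lower, and gene-level counts show neither the edit nor the protein. All 8 melanocyte-lineage markers were detected, and all 8 were higher in Ythdf2-KO: their levels summed to 1433 to 1462 CPM per WT library and 3068 to 3092 per Ythdf2-KO library. Most of the WT sum was Gpnmb, with a mean of 1206 CPM, which rose 1.38-fold. Mitf rose 1.27-fold, Sox10 4.33-fold, and Mlana, Pmel, Tyr, Tyrp1 and Dct 6.24- to 7.65-fold. Of 6 fibroblast markers 4 were higher and 2 lower, with sums of 4294 to 4376 and 5673 to 5797 CPM, most of it the collagen gene Col3a1. Dcn fell 11.7-fold, from a mean of 487 to 41.5 CPM, and Lum fell 2.56-fold. Col3a1 rose 1.44-fold, Pdgfra 1.51-fold, Col1a1 4.56-fold and Fap, with means of 0.42 and 2.18 CPM, 5.16-fold. Leukocyte markers summed to 18.3 to 19.8 and 23.6 to 24.7 CPM, with 3 of 8 tested, 2 higher and 1 lower. Endothelial markers summed to 2.61 to 3.15 and 1.95 to 2.48 CPM, with 3 of 4 tested and 1 lower. Epithelial markers stayed below 1 CPM in sum, with none of 4 tested. Mitochondrially encoded genes took 1.08 to 1.33% of counts in WT and 1.57 to 1.82% in Ythdf2-KO, and the nuclear RNA Malat1 ranged over 375.5 to 511 CPM among WT libraries and 576 to 722 CPM among Ythdf2-KO libraries. These markers and shares move with the genotype, as do the sterol genes, and their part in the results was not tested.

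Ythdf2-KO cells carried more mRNA for all 18 listed enzymes of cholesterol synthesis, while genes that move, store or export cholesterol went both ways. Of the 31 genes, 30 had enough counts to be tested. At an adjusted p under 0.05, 23 were higher in Ythdf2-KO, where 24.1% of all 17718 tested genes were, and 4 were lower, where 25.8% of all tested genes were (edgeR's quasi-likelihood test, Benjamini-Hochberg adjustment over all genes). The 18 synthesis enzymes were 1.51- to 3.58-fold higher, and the 3 genes that did not pass the test were Npc1, Nr1h2 and Nr1h3. The median log2 fold change of the 30 was 0.91, a 1.88-fold rise, against -0.0053 over all genes tested. Every Ythdf2-KO library lay above every WT library for 23 of the 30, against 26.9% of all tested genes, and below for 4, against 28.9%. The groups overlapped for the 3 genes that were not called. Among genes with a mean of at least 5 CPM, 14 of 28 of these genes were called and at least 2-fold higher, against 2.18% of the 10508 genes at that level.

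**Figure D1:**
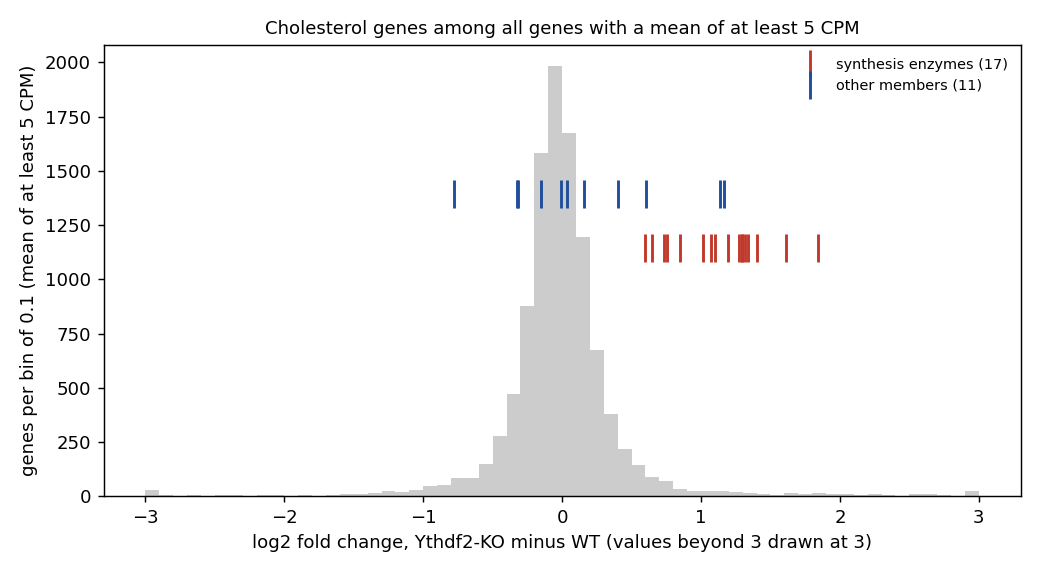
Histogram of the log2 fold change, Ythdf2-KO minus WT, of the 10508 genes averaging 5 CPM or more, with ticks for 17 synthesis enzymes (red) and 11 other genes of the set (blue). The vertical place of the ticks carries no value. The red ticks lie between 0.60 and 1.84, to the right of the bulk of genes, and the blue ticks spread from -0.78 to 1.17.

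Summed over the 18 enzymes, the WT libraries gave 1110, 1151 and 1129 CPM and the Ythdf2-KO libraries 2515, 2540 and 2598 CPM. All 18 were called higher, 12 of them at least 2-fold, with a median fold of 2.21. Within a genotype the enzymes varied little between libraries: the coefficient of variation had a median of 3.28% in WT and 2.55% in Ythdf2-KO. It was highest, at 22.7% in WT, for Tm7sf2, the enzyme gene with the fewest counts. In these bulk libraries a higher level in each cell and a larger share of cells with a high level cannot be told apart.

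All 7 genes of the mevalonate stretch rose, with a median log2 fold change of 1.27. Hmgcs1 encodes the synthase that makes HMG-CoA, near the start of the route. It stood at 104, 103 and 104 CPM in WT and at 241, 255 and 255 CPM in Ythdf2-KO. The groups lay far apart, with a log2 fold change of 1.27 ± 0.025 (SE, n = 3 per group; edgeR adjusted p = 3.24e-37). Fdps, which encodes farnesyl diphosphate synthase, the last shared step before sterols and prenyl groups part, stood at 113, 120.5 and 112 CPM in WT and at 301, 300.2 and 313 CPM in Ythdf2-KO. Its rise was 2.65-fold (log2 fold change 1.40 ± 0.026, SE; edgeR adjusted p = 6.30e-36). Fdps shares 26.7% of its exon length with Gm43738 on the same strand. Gm43738 was not among the tested genes, and how reads in the overlap were counted is not given.

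Idi1, the isomerase that supplies dimethylallyl diphosphate, rose most of this stretch. It stood at 10.9, 10.9 and 12.2 CPM in WT and at 33.9, 35.3 and 34.8 CPM in Ythdf2-KO, a 3.05-fold rise (edgeR adjusted p = 4.49e-28). Its processed copies drew few counts: Idi1-ps1 held 219 over all libraries against 9059 for Idi1. Mvd, which encodes the decarboxylase before it, went from 16.1 ± 1.06 to 39.4 ± 1.19 CPM (SD, n = 3), 2.45-fold. The kinase genes differed from each other. Mvk, mevalonate kinase, rose 2.02-fold from 35.5 ± 0.614 to 71.6 ± 3.68 CPM, while Pmvk, phosphomevalonate kinase, rose 1.56-fold from 25.7 ± 0.924 to 40.2 ± 1.80 CPM, the least of the stretch. Acat2 encodes the cytosolic thiolase that feeds Hmgcs1 with acetoacetyl-CoA. It rose 2.29-fold, from 31.1 ± 0.352 to 71.2 ± 3.34 CPM. Its near-identical neighbour Acat3 held 206 counts over all libraries against 20110 for Acat2 and was not called (edgeR adjusted p = 0.912). Reads can be shared between the pair.

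**Figure D2:**
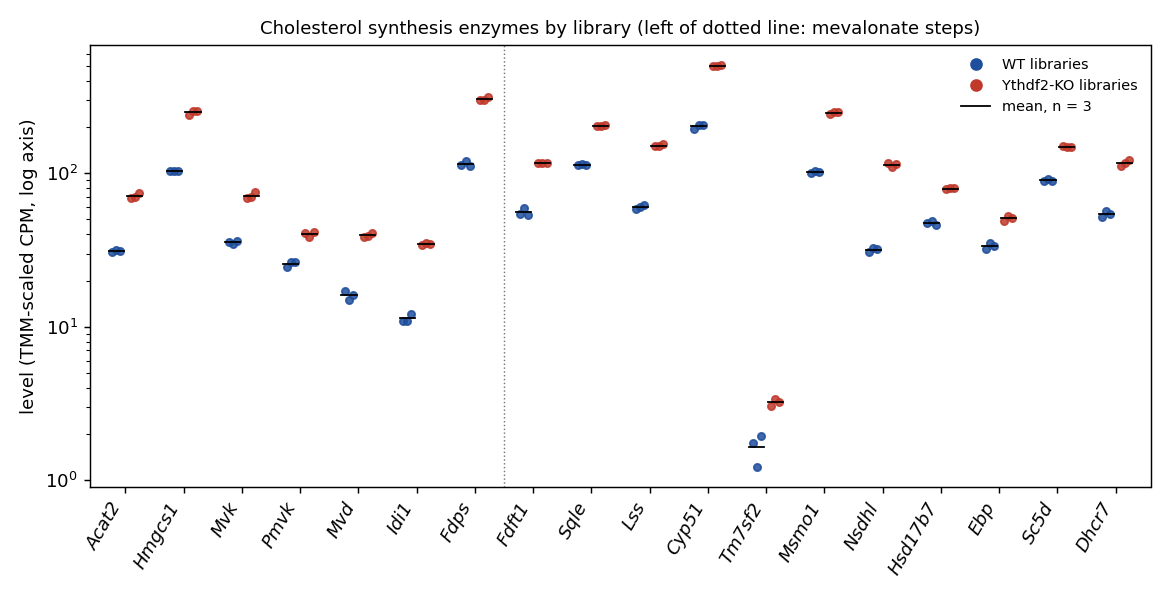
Level of each of the 18 synthesis enzyme genes in each library, in TMM-scaled CPM on a log axis, with WT in blue, Ythdf2-KO in red and the mean of 3 libraries as a black line. Mevalonate steps stand left of the dotted line and squalene and later steps right of it. For every gene the 3 red points lie above the 3 blue points.

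From squalene onward, all 11 genes rose, with a median log2 fold change of 1.07. Fdft1, squalene synthase, is the first step committed to sterols. It went from 55.6 ± 3.02 to 117 ± 0.626 CPM (SD, n = 3), a 2.10-fold rise. Its exons overlap Ctsb on the other strand over 774 bases, 18.3% of its exon length. Ctsb had a mean of 1112 CPM and a log2 fold change of -0.023 (edgeR adjusted p = 0.406), and how reads in the overlap were counted is not given. Sqle, squalene epoxidase, an oxygen-using control point of the route, went from 114 ± 1.04 to 205 ± 2.63 CPM, 1.80-fold. Lss, lanosterol synthase, which closes the ring system, rose more, 2.53-fold, from 60.1 ± 1.64 to 152 ± 2.38 CPM.

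The enzymes that strip methyl groups from lanosterol included the largest rise. Cyp51, lanosterol 14-alpha-demethylase, stood at 195, 205 and 206 CPM in WT and at 499, 500.2 and 510.5 CPM in Ythdf2-KO. Msmo1, the C4-methyl sterol oxidase, stood at 100.04, 103 and 102 CPM in WT and at 242, 252 and 253 CPM in Ythdf2-KO. Nsdhl, the decarboxylating dehydrogenase that works after it, stood at 30.7, 32.7 and 32.1 CPM in WT and at 117, 111 and 115 CPM in Ythdf2-KO. In all 3 genes the lowest Ythdf2-KO library was more than 2 times the highest WT library. Nsdhl had the largest rise of the 31 genes, 3.58-fold (log2 fold change 1.84 ± 0.034, SE, n = 3 per group; edgeR adjusted p = 1.58e-38), and 0.99% of the 10508 genes at 5 CPM or more rose further. Hsd17b7, the ketoreductase that completes this cycle, rose less, 1.69-fold, from 47.1 ± 1.42 to 79.6 ± 0.962 CPM (SD, n = 3).

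Among the last steps, Ebp and Sc5d rose by smaller amounts than Dhcr7. Ebp, the sterol isomerase, went from 33.6 ± 1.55 to 50.9 ± 2.16 CPM, 1.51-fold, the smallest rise among the enzymes. Sc5d, the C5 desaturase, went from 89.9 ± 1.79 to 149 ± 1.85 CPM, 1.66-fold. Dhcr7, which reduces 7-dehydrocholesterol, went from 54.3 ± 2.66 to 117 ± 4.75 CPM, 2.14-fold (SD, n = 3 for each). Tm7sf2, a sterol C14 reductase, was scarce, at 1.75, 1.22 and 1.94 CPM in WT and at 3.04, 3.40 and 3.21 CPM in Ythdf2-KO. Its groups did not overlap and it passed the test (log2 fold change 0.97 ± 0.17, SE; edgeR adjusted p = 2.61e-06). It shares 12.1% of its exon length with Vps51 on the same strand, and Vps51 did not pass the test (log2 fold change 0.10; edgeR adjusted p = 0.110). Across the 18 enzymes, the size of the rise bore little relation to the WT level per kilobase of exon (Pearson r = -0.032, Spearman rho = -0.10, across genes of the same libraries).

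**Figure D3:**
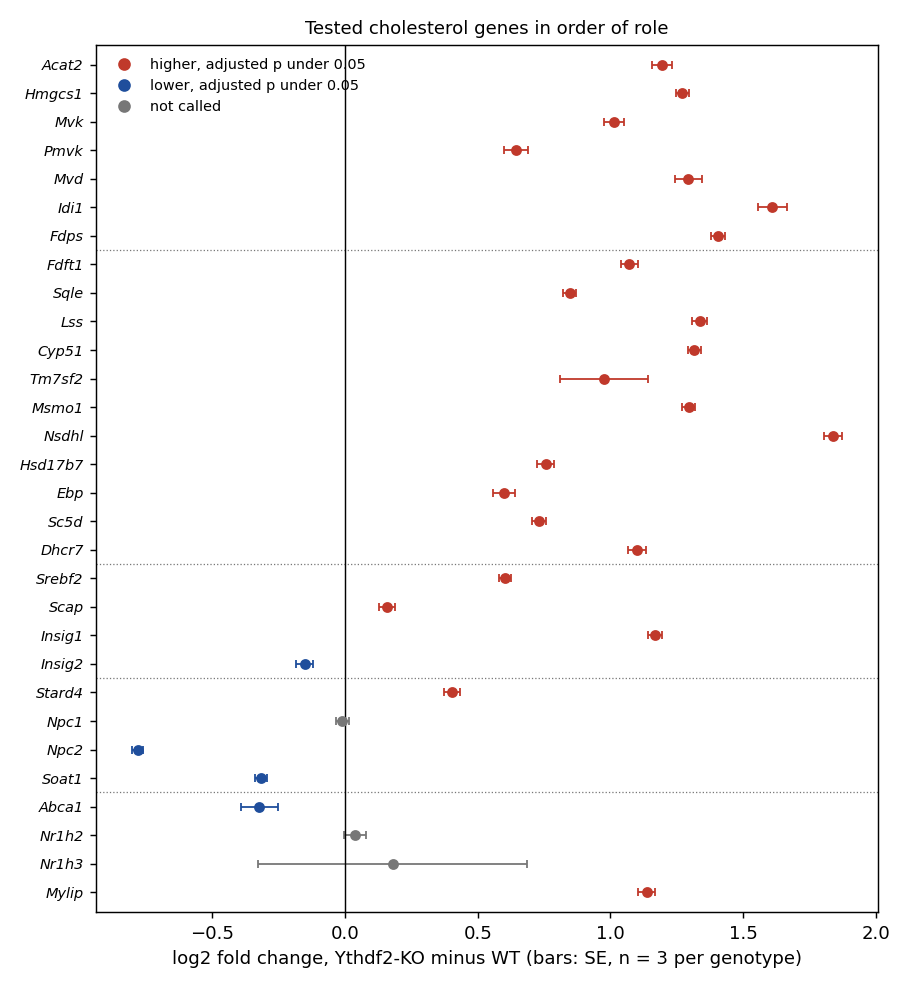
Log2 fold change, Ythdf2-KO minus WT, of the 30 tested genes in order of role, with the standard error as bars (n = 3 per genotype). Dotted lines part mevalonate enzymes, squalene and later enzymes, SREBP2 and its sensors, transport and esterification, and the LXR and efflux group. All 18 enzymes lie at 0.60 or above, while the lower groups fall on both sides of 0.

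Srebf2 and the genes whose proteins escort or retain SREBP2 moved unequally. Srebf2 itself stood at 237, 247 and 237 CPM in WT and at 364, 358 and 374 CPM in Ythdf2-KO. The groups were well apart, and the rise was 1.52-fold (log2 fold change 0.60 ± 0.023, SE; edgeR adjusted p = 2.56e-26), less than that of 17 of the 18 enzymes by point estimate. Insig1, a SREBP2 target whose protein retains SCAP in the endoplasmic reticulum, stood at 72.5, 71.04 and 72.7 CPM in WT and at 162, 159 and 165 CPM in Ythdf2-KO, a 2.25-fold rise (edgeR adjusted p = 8.42e-35). Insig2, which encodes its relative with the same retaining function, went the other way. It stood at 59.6, 59.97 and 59.1 CPM in WT and at 53.7, 53.5 and 53.5 CPM in Ythdf2-KO. That fall was slight, 1.11-fold, yet the groups did not overlap (edgeR adjusted p = 1.54e-04). Scap, the escort protein, rose 1.12-fold, from 68.2 ± 1.90 to 76.2 ± 0.723 CPM (SD, n = 3; edgeR adjusted p = 3.13e-05).

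Genes that carry cholesterol out of lysosomes did not follow the enzymes. Npc2 encodes the soluble lysosomal protein that hands cholesterol to NPC1. It was the most abundant of the 31 genes in WT, also per kilobase of exon, at 736, 772 and 742 CPM, and stood at 443, 429 and 438 CPM in Ythdf2-KO. The fall was 1.72-fold (log2 fold change -0.78 ± 0.022, SE; edgeR adjusted p = 1.24e-31), and 97.1% of the 10508 genes at 5 CPM or more had a higher log2 fold change. Npc1, its membrane partner, stood at 147, 151 and 144 CPM in WT and at 147, 147 and 145 CPM in Ythdf2-KO. The groups overlapped, with a log2 fold change of -0.0095 ± 0.025 (SE, n = 3 per group; edgeR adjusted p = 0.790), whose sign turned under 4 of the other settings.

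Of the other transport genes, Stard4 rose and Soat1 fell. Stard4, a SREBP2 target that encodes a cytosolic sterol carrier, went from 64.9 ± 1.12 to 85.9 ± 0.753 CPM, 1.32-fold (SD, n = 3). Soat1 encodes the enzyme that esterifies cholesterol for storage in droplets. It stood at 299.9, 301 and 296 CPM in WT and at 233, 247 and 240.4 CPM in Ythdf2-KO, a 1.24-fold fall (log2 fold change -0.32 ± 0.023, SE; edgeR adjusted p = 3.86e-16). Of the 4 genes of this group, then, 1 rose, 2 fell and 1 did not pass the test.

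The LXR group was divided too. Mylip stood at 51.8, 51.4 and 50.5 CPM in WT and at 109, 111 and 118 CPM in Ythdf2-KO, a clear separation (log2 fold change 1.14 ± 0.032, SE; edgeR adjusted p = 2.01e-31). Abca1, the cholesterol exporter and another LXR target, stood at 16.6, 15.04 and 13.7 CPM in WT and at 11.9, 11.97 and 12.2 CPM in Ythdf2-KO. Every WT library was above every Ythdf2-KO library, and the fall was 1.25-fold (log2 fold change -0.32 ± 0.070, SE; edgeR adjusted p = 1.31e-04). Both genes are switched on by the same receptors in textbook accounts, and here they moved in opposite directions.

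The receptors differed in level. Nr1h2, which encodes the widely expressed LXR beta, stood at 42.9, 40.2 and 40.7 CPM in WT and at 40.7, 42.6 and 43.7 CPM in Ythdf2-KO. These groups overlapped (log2 fold change 0.037 ± 0.040, SE; edgeR adjusted p = 0.474). Nr1h3, which encodes LXR alpha, held 9, 17 and 10 counts in WT and 22, 10 and 11 counts in Ythdf2-KO, or 0.146 to 0.322 CPM. A difference was not detectable at these counts (log2 fold change 0.18 ± 0.51, SE; edgeR adjusted p = 0.806). Abcg1, a second exporter, held 10, 6 and 9 counts in WT and 6, 8 and 6 counts in Ythdf2-KO and was the gene left untested.

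**Figure D4:**
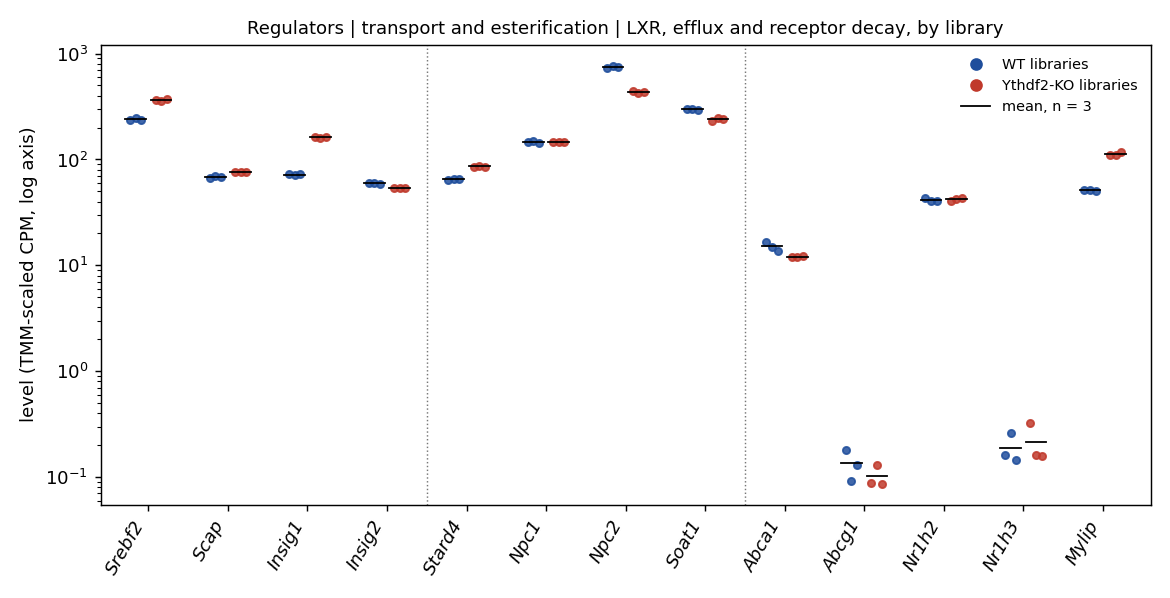
Level of the 13 genes outside the synthesis enzymes in each library, in TMM-scaled CPM on a log axis, with WT in blue, Ythdf2-KO in red and the mean of 3 libraries as a black line. Dotted lines part SREBP2 and its sensors, transport and esterification, and the LXR and efflux group. Srebf2, Insig1 and Mylip are higher in Ythdf2-KO, Npc2 and Soat1 are lower, and Abcg1 and Nr1h3 lie below 1 CPM.

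Set against each other per kilobase of exon, the order of the genes shifted with genotype. Npc2 led in WT, at 138 CPM per kilobase, ahead of Cyp51 at 45.8, Srebf2 at 33.4, Soat1 at 30.5 and Fdps at 27.3. In Ythdf2-KO, Cyp51 led at 114 CPM per kilobase, ahead of Npc2 at 80.3, Fdps at 72.4, Hmgcs1 at 54.4 and Insig1 at 52.4. Nsdhl went from place 21 of 31 to place 8, and Soat1 from place 4 to place 15. Exon lengths are unions over all annotated transcripts, so these levels are too low for genes that use short forms.

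A further 63 genes of neighbouring parts of the pathway showed no common direction. Of these, 62 were tested, 23 were higher and 21 lower (27 and 16 with upper-quartile scaling), with a median log2 fold change of 0.040. Over all tested genes, 24.1% were higher and 25.8% lower. Of 12 SREBP cleavage and sterol-sensing genes, 5 fell, 2 rose and 5 did not pass the test, with a median log2 fold change of -0.060. Mbtps1, the protease that makes the first cut in SREBP, fell from 236 ± 2.67 to 186 ± 0.0596 CPM (SD, n = 3; log2 fold change -0.34). Mbtps2, the protease of the second cut, fell by 0.17 on the log2 scale, and Erlin1 and Ufd1, which serve sterol-linked protein degradation, fell by 0.14 and 0.13. Marchf6 and Fbxw7, which encode parts of ubiquitin ligases, rose, with log2 fold changes of 0.084 and 0.15. Tmem97, a sterol-responsive gene, had means of 101 ± 2.02 CPM for WT and 101 ± 2.05 CPM for Ythdf2-KO (not called, edgeR adjusted p = 0.864).

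Of 16 enzymes that draw on mevalonate products for purposes other than sterols, 4 rose and 6 fell. Over all tested genes, 24.1% rose and 25.8% fell, shares near those of this short list. The list's median log2 fold change was -0.019. Among those that fell were Rabggta, a subunit of the Rab prenylating enzyme, with a log2 fold change of -0.31, and Pdss1, which makes the side chain of coenzyme Q, at -0.33. Those that rose were Pdss2, Coq2, Icmt and Zmpste24, with log2 fold changes of 0.37, 0.32, 0.11 and 0.10.

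Of 19 uptake and transport genes outside the 31, 10 were higher and 5 lower, against 24.1% and 25.8% of all tested genes. Their median log2 fold change was 0.15. Cav1, which encodes the cholesterol-binding coat protein of caveolae, rose from 711 ± 4.84 to 959 ± 16.9 CPM (SD, n = 3; log2 fold change 0.43). Osbpl8 and Gramd1b, which encode lipid-transfer proteins of the endoplasmic reticulum, each fell by 0.45 on the log2 scale. The other 3 that fell were Lrpap1, Scarb2 and Osbpl2, by 0.21, 0.14 and 0.12.

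Other LXR targets and oxysterol genes had no shared direction. Of 15 tested, 7 rose and 5 fell, against 24.1% and 25.8% of all tested genes. The median of their log2 fold changes was 0.089. Lpcat3, an LXR target that remodels phospholipids, rose from 112 ± 1.18 to 201 ± 2.87 CPM (log2 fold change 0.85; edgeR adjusted p = 5.77e-31). Pltp, another, rose from 22.9 ± 0.588 to 37.7 ± 0.307 CPM. Smpdl3a, an LXR target in human macrophages, had the largest rise of the list, 5.75-fold, from 0.717 ± 0.168 to 4.15 ± 0.387 CPM. Abca7, Cyp27a1 and Ncor1 rose, with log2 fold changes of 0.38, 0.35 and 0.11. Arl4c, also an LXR target in human macrophages, fell from 122 ± 4.05 to 79.3 ± 1.10 CPM (SD, n = 3 for each). Of the oxysterol genes, Cyp46a1, which makes an oxysterol in neurons, fell from 8.68 ± 0.832 to 3.70 ± 0.613 CPM. Abca2 and Rxra, the latter encoding a partner of the LXRs, fell by 0.17 and 0.10 on the log2 scale. Cyp7b1, an oxysterol hydroxylase, held 12, 20 and 16 counts in WT and 0 in each Ythdf2-KO library, at least 16.7-fold lower against a floor of 3 counts over that group. With Cyp7b1 at that bound the list's median was also 0.089. Srebf1, which encodes the fatty-acid-oriented relative of SREBP2, rose by a log2 fold change of 0.089, from 216 ± 6.07 to 229 ± 6.44 CPM.

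The pentamer GGACT, a preferred site for m6A, was counted in the longest annotated protein-coding transcript of each gene. The 23 genes that rose had a median of 1.09 per kilobase and the 4 that fell 1.31, against a median of 1.05 and an interquartile range of 0.642 to 1.52 over 13022 tested genes. Methylation itself was not measured in these libraries.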

How the data were processed

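Poly(A)-enriched RNA of 6 B16-OVA libraries was sequenced. Per the submitters' processing notes, fastp 0.23.2, HISAT2 2.2.1 and featureCounts 2.0.6 were used with GRCm39; the deposited values are raw counts per gene symbol, not normalized by the authors. How strand and multiply aligned reads were handled is not given in the sources used here. From these counts, genes were filtered with filterByExpr, which kept 17718, scaled with TMM, and compared in R 4.3.3 with edgeR 4.0.16 (robust quasi-likelihood fit on genotype, Benjamini-Hochberg adjustment over all genes, threshold 0.05). The SE is the log2 fold change divided by the root of the test's F. Levels are TMM-scaled CPM. The code was tested on simulated data. Exon lengths, overlaps and transcripts came from GENCODE M21 and promoters from RefSeq, both on GRCm38 and joined by symbol, because no GRCm39 annotation was used here; only promoter coordinates are printed. Named genes were all 31, and of the other lists the 3 smallest adjusted p-values and any direction with 5 or fewer; Tmem97, Srebf1, Cyp7b1, Smpdl3a, Abca7, Cyp27a1, Ncor1 and the overlapping or copy genes were added for context, and a few genes that the rule names are not reported here. The genes and lists were chosen with earlier results of these data known. Alternatives were RLE and upper-quartile scaling, TMM with the top 20 genes and mitochondrial genes set aside, no filter, a mean of 5 CPM, the replicate block, leaving out libraries, DESeq2 1.42.0, limma-voom (limma 3.58.1) and a threshold of 0.01. The second sterol motif, the GGACT count and leaving out replicate 3 of both genotypes were added after the data were seen.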

Additional observations from a re-analysis of the deposited data

How the results depend on the processing

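The 23 higher and 4 lower calls among the 30 tested genes kept their number under every alternative run, except 22 higher with a filter at a mean of 5 CPM, which left Tm7sf2 out, and no gene that was tested lost or gained a call. Across 478 values of single genes under the alternatives, 473 kept direction and side of the threshold, and the 5 that changed sign belonged to Npc1 and Nr1h3, which did not pass the test in any of them. The log2 fold change of Npc1 was 0.045 with upper-quartile scaling, 0.011 with no filter, 0.015 with a filter at a mean of 5 CPM and ran from -0.027 to 0.019 when 1 library was left out, highest without WT replicate 2. That of Nr1h3 ran from -0.24 without Ythdf2-KO replicate 1 to 0.49 without WT replicate 2. The median log2 fold change of the set, 0.91, was 0.96 with upper-quartile scaling, 0.87 with no filter and 0.95 with a filter at 5 CPM. Leaving out 1 library at a time gave 0.84 to 0.94. The share of calls over all genes that were higher was 48.3% with TMM and 59.2% with upper-quartile scaling, which moved the median of all genes by less than 0.1 on the log2 scale. No shared effect of replicate number was seen: deviations of same-numbered libraries correlated at 0.011, -0.037 and -0.052. Those of differently numbered libraries correlated at -0.015 to 0.051. The labels do not say whether the numbers pair the libraries. With the replicate block the median was 0.92, and 4132 genes were higher and 4409 lower, against 4270 and 4569 without it. Abcg1 and Nr1h3, at 22 counts or fewer per library, are limited by depth.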
